A study of Mus musculus with 16 samples.

Results

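Cell junction genes were followed in organoid lines grown from metastases and primary tumors of the same mice with pancreatic ductal adenocarcinoma. The set held 35 genes, listed by symbol, out of 55487 gene identifiers in the tables. It comprised 6 adherens junction genes (Cdh1, Cdh2, Cdh3, Ctnna1, Ctnnb1, Epcam), 7 tight junction scaffold and receptor genes (Tjp1, Tjp3, Cgn, Ocln, Marveld2, Marveld3, F11r), 9 claudins, 6 desmosome genes, 5 keratins and 2 gap junction genes. Epcam, a cell surface glycoprotein that is neither a cadherin nor a catenin, was placed with the adherens junction genes for listing only. All 35 were found in the tables, and 34 passed the filter on low counts. Cldn1 did not pass it.

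The 16 lines came from 6 mice of the KPC model, whose strain label is C57BL6/J. There were 9 metastasis lines, from liver and peritoneum, diaphragm, lung and ovary, and 7 tumor lines. The liver lines came from mice 1 and 6, the peritoneal lines from mice 2, 3 and 4, the diaphragm lines from mice 5 and 6, the lung line from mouse 5 and the ovary line from mouse 6. Mouse 6 gave 2 tumor lines and each other mouse gave 1. KPC mice are known as a model in which Cre recombinase switches on engineered alleles in pancreatic cells, and metastasis and tumor lines share them. The labels give no age or sex. All lines grew in Matrigel, a gel of basement membrane proteins, in 1 medium. It held A83-01, an inhibitor of TGF-beta receptors, as well as EGF, FGF-10, gastrin, Noggin and R-spondin, so no line was profiled without TGF-beta receptor inhibition. A line is a culture of 1 tissue sample, and lines of 1 mouse are not independent animals.

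Epithelial cells are held together by layers of junctions. In adherens junctions E-cadherin binds its like on the next cell and is tied to actin through catenins. Tight junctions seal the space between cells, and their claudins decide whether that seal is closed or lets ions through. Desmosomes anchor keratin filaments, and gap junctions are channels that join the cytoplasm of neighbouring cells. Pancreatic duct cells use all of these to line a tube that carries bicarbonate-rich fluid.

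Dsc2, Cldn6, Pkp3 and Krt7 were higher in metastasis lines than in tumor lines, and Gjb1 and Cldn2 were lower. Dsc2 is a desmosomal cadherin, Cldn6 and Cldn2 are claudins, Pkp3 is a desmosomal plaque protein, Krt7 a keratin and Gjb1 a connexin. No adherens junction gene and no tight junction scaffold or receptor gene passed the test. Thus 6 of 34 tested genes (17.6%) passed an adjusted p of 0.05 in edgeR's quasi-likelihood test with mouse as a block, against 16.5% of all 15573 genes tested, so the share of calls was near the background. Of the 34, 4 were higher (6.59% of all genes) and 2 were lower (9.92% of all genes). The median log2 fold change of the 34 was 0.12, beside -0.02 over all genes tested. Signs were positive in 22 and negative in 12. An unadjusted p under 0.05 in the same test was found for 13 of the 34, beside 5240 of all 15573 genes. Higher values in the metastasis lines of all 6 mice were found for 8 genes and lower values for 2, against 11.9% and 13.9% of all genes. In no member were the 9 metastasis lines and the 7 tumor lines fully apart, which held for 1.12% of all genes.

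**Figure D1:**
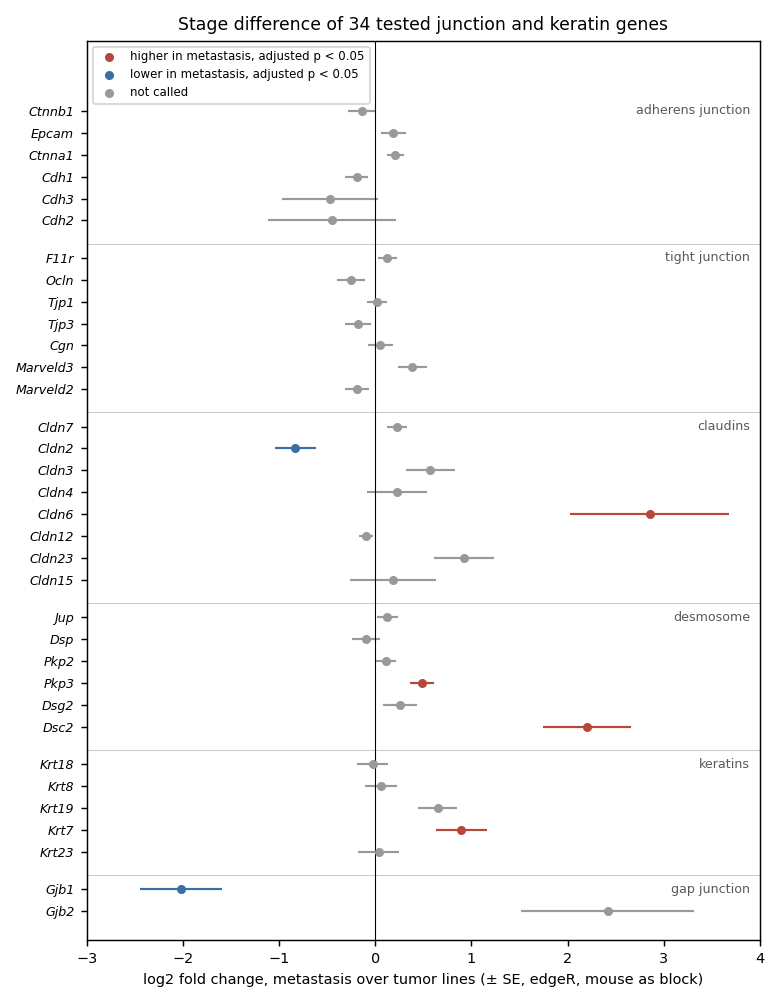
Log2 fold change of metastasis over tumor lines (horizontal axis) for the 34 tested genes, grouped by junction class. Points are edgeR estimates with mouse as a block and bars are ± 1 SE. Dsc2 and Cldn6 lie farthest right among the coloured points at 2.21 and 2.86, Gjb1 lies farthest left at -2.02, and the adherens junction and tight junction scaffold genes lie close to 0.

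Total expected counts ran from 24624420 to 47945773 in metastasis lines and from 25737458 to 49965492 in tumor lines. Genes that collect ribosomal RNA reads took 0.0185% to 72.7% of counts in metastasis lines (median 12.3%) and 0.0463% to 29.9% in tumor lines (median 0.272%). This share moved with stage, and its part in the results was not tested beyond 3 refits. Without the mouse 5 diaphragm and mouse 2 tumor libraries, which had the most, only Dsc2 stayed past the threshold. With the share as a covariate 4 genes passed, and with its log10 as a covariate none of the 34 passed. Leaving out the mouse 6 tumor 1 line raised the count of called genes to 10. Leaving out the tumor line of mouse 1, 2, 3 or 5, or the mouse 1 liver, mouse 3 peritoneum or mouse 2 peritoneum line, gave 2 or 3. The calls over all genes in these fits are not set beside these counts. Levels below are TPM rescaled in each line to 1000000 over nuclear protein-coding genes without the ribosomal RNA genes, so that the ribosomal RNA reads of a library do not lower its values. In bulk samples, fewer cells that express a gene and less RNA per cell cannot be told apart.

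Levels that bear on the epithelial label come first. Epcam, a cell surface glycoprotein of epithelia, had 275 to 767 TPM (median 594) in metastasis lines and 450 to 619 TPM (median 480) in tumor lines. It is itself a member of the set, so its level is no independent check of the label. All 8 duct markers exceeded 1 CPM in at least 1 line. Their summed level was 265 to 1596 CPM (median 405) in metastasis lines and 345 to 2272 CPM (median 1400) in tumor lines, and Spp1 had the highest mean of the 8 in both groups, though a minor share in several mouse 6 lines. Within the list, Cftr averaged 66.8 CPM in metastasis lines and 14.6 CPM in tumor lines, and Onecut1 0.0339 CPM in metastasis lines and 14.4 CPM in tumor lines. None of 7 fibroblast, 6 immune or 6 acinar markers reached 1 CPM in any line, and Lum, Adgre1 and Cpa1 were at 0 in every line. Summed fibroblast markers were at most 0.775 CPM in metastasis lines and 0.230 CPM in tumor lines. Endothelial markers summed to 0.907 to 85.0 CPM in metastasis lines and 0.586 to 3.71 CPM in tumor lines. The highest sum was that of the mouse 4 peritoneum line, where Cd34 had 84.5 CPM. Cd34 had 5.84 CPM in the mouse 3 peritoneum line and at most 0.558 CPM in the other 14 lines. Mesothelial markers summed to 309 to 757 CPM in metastasis lines and 164 to 1135 CPM in tumor lines. That sum was mostly Msln, also known from ductal adenocarcinoma, and Wt1 averaged 0.0464 CPM in metastasis lines and 0.00832 CPM in tumor lines. Hepatocyte markers summed to 4.06 to 397 CPM in metastasis lines and 77.7 to 287 CPM in tumor lines, with members in opposite directions. Apob averaged 129.8 CPM in metastasis lines and 48.7 CPM in tumor lines, and Ttr 1.36 CPM in metastasis lines and 69.6 CPM in tumor lines. Lung markers, led by Sftpd, summed to 0.401 to 21.6 CPM in metastasis lines and 10.3 to 222 CPM in tumor lines. Ovary and oviduct markers, mostly Star and Pax8, summed to 4.43 to 10.3 CPM in metastasis lines and 4.58 to 8.75 CPM in tumor lines. The part of duct, endothelial or other markers in the results below was not tested.

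Levels spanned a wide range per length of transcript. The median over 16 lines was at least 100 TPM for 13 genes, led by Krt18, Krt8 and Krt19, between 10 and 100 TPM for 16, and lower for 6. In 18 of 35 genes the highest line was less than 3-fold above the lowest. In 6 it was more than 10-fold above, namely Cldn6, Gjb2, Cdh3, Dsc2, Gjb1 and Cldn15. Cdh2 and Cldn1 reached 0 in at least 1 line, so no such ratio was formed. In 27 of 34 tested genes the SD of log2 CPM was larger among metastasis lines than among tumor lines. The same count was not made over all genes, so this is not shown to be particular to the set. The mouse 4 peritoneum line was the lowest metastasis line in 13 genes, and the mouse 5 tumor line was the highest tumor line in 15.

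**Figure D2:**
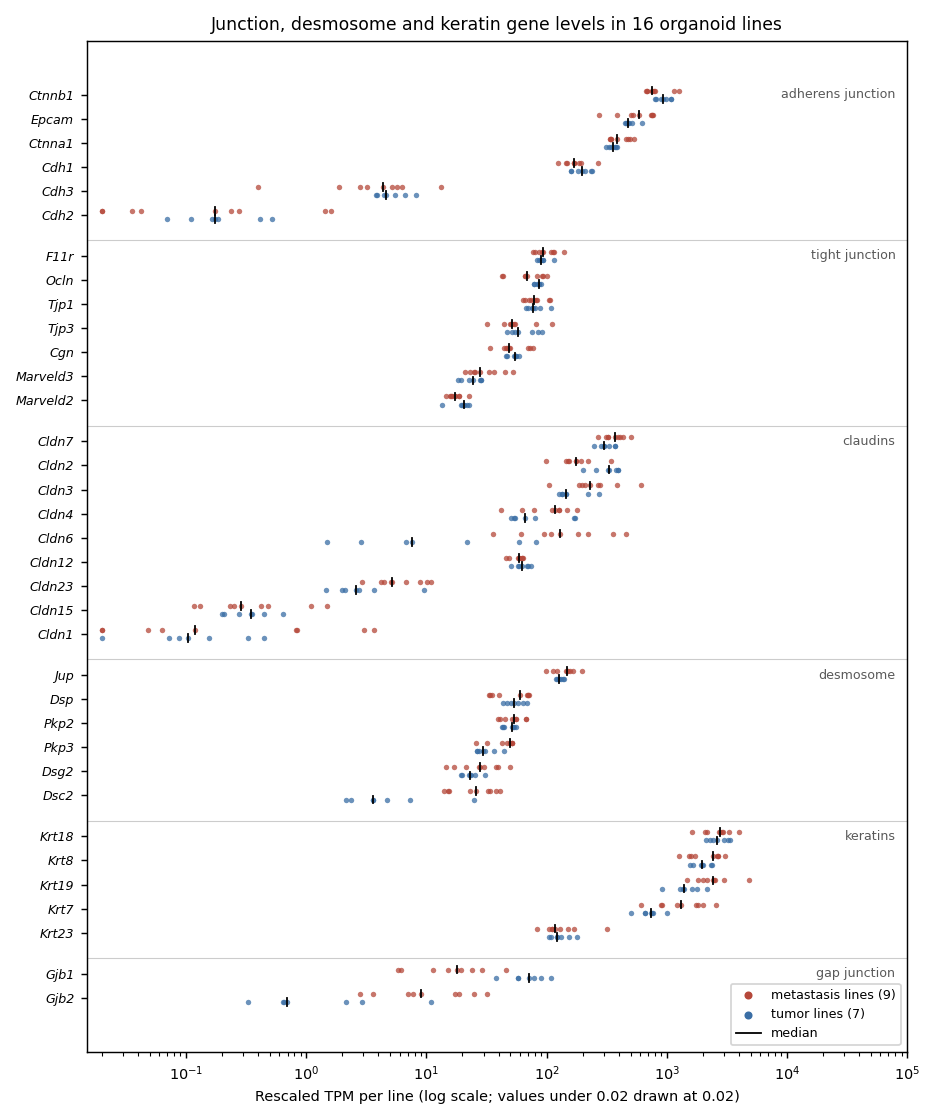
Rescaled TPM of the 35 genes (horizontal axis, log scale) in each of 9 metastasis lines (red, upper row of each gene) and 7 tumor lines (blue, lower row), with a bar at each group's median. Keratins and catenin genes sit at the right, Cdh2, Cldn1 and Cldn15 at the left, and the groups lie apart most for Dsc2, Cldn6, Gjb1 and Gjb2.

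None of the 6 adherens junction genes passed the test. Cdh1, which encodes E-cadherin, had 124 to 268 TPM (median 170) in metastasis lines and 159 to 239 TPM (median 198) in tumor lines, and the groups overlapped. The stage estimate was -0.19 on the log2 scale (SE 0.12, adjusted p = 0.285). Ctnnb1, or beta-catenin, which links cadherins to the cytoskeleton and also carries Wnt signals, had median levels of 755 TPM in metastasis lines and 928 TPM in tumor lines (log2 fold change -0.14, SE 0.14, adjusted p = 0.519). Ctnna1, or alpha-catenin, the link from that complex to actin, had medians of 385 and 357 TPM in metastasis and tumor lines (0.21, SE 0.09, adjusted p = 0.113). Of 36 alternatives, Ctnna1 passed in DESeq2 alone (adjusted p = 0.0477). For Epcam the estimate was 0.19 (SE 0.13, adjusted p = 0.351).

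The other 2 cadherins of the set were lower than Cdh1 in every line. Cdh2, or N-cadherin, typical of mesenchymal and neural cells, had a median of 0.175 TPM in metastasis lines and 0.174 TPM in tumor lines. Its highest metastasis lines were those of mouse 5, with 1.62 TPM in the diaphragm line and 1.42 TPM in the lung line. The log2 fold change was -0.45 (SE 0.67, adjusted p = 0.676). Cdh3, or P-cadherin, whose gene lies 46.1 kb from Cdh1, ranged from 0.400 to 13.2 TPM among metastasis lines and from 3.83 to 8.14 TPM among tumor lines. The extremes were both peritoneal lines, with 0.400 TPM in mouse 3 and 13.2 TPM in mouse 4, and the stage log2 fold change was -0.47 (SE 0.50, adjusted p = 0.544). Between the highest and lowest of 16 lines, Cdh1 varied 2.17-fold and Cdh3 33.1-fold.

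Outside the 35 genes, 14 of 19 other adherens junction genes were tested, and 0 were higher and 2 lower. Cdh17, an intestinal cadherin named here after its values were seen, did not pass and had 97.5 to 578 TPM in metastasis lines and 54.9 to 364 TPM in tumor lines (adjusted p = 0.0559). Cdh6, a cadherin of kidney and other embryonic epithelia, had 0.0168 to 0.353 TPM (median 0.0599) in metastasis lines and 0.236 to 10.6 TPM (median 8.16) in tumor lines. The low tumor value was mouse 6 tumor 1 alone, as the other 6 tumor lines had 4.39 TPM or more. Its log2 fold change was -6.61 (SE 0.77, adjusted p = 0.000743), and it was lower in 6 of 6 mice. Nectin3, an immunoglobulin-like adhesion receptor, had medians of 4.11 and 12.6 TPM in metastasis and tumor lines (-1.39, SE 0.32, adjusted p = 0.0149; 0.0554 with the log10 ribosomal RNA share as a covariate).

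None of the 7 tight junction scaffold and receptor genes passed the test. Tjp1, or ZO-1, the scaffold beneath the claudin strands, had 64.1 to 107 TPM (median 78.4) in metastasis lines and 67.0 to 108 TPM (median 76.9) in tumor lines. Its log2 fold change was 0.01 (SE 0.10, adjusted p = 0.946), which makes it the closest to 0 of the tested members. Ocln, or occludin, had 42.5 to 101 TPM (median 68.2) in metastasis lines and 78.4 to 89.9 TPM (median 85.9) in tumor lines. Both mouse 5 metastasis lines were the lowest, at 43.4 TPM for diaphragm and 42.5 TPM for lung, and the test gave -0.25 (SE 0.15, adjusted p = 0.257). Marveld2, or tricellulin, found where 3 cells meet, lies 43.2 kb from Ocln and gave -0.19 (SE 0.13, adjusted p = 0.304). Marveld3, a relative of both, was higher in the metastasis lines of 6 of 6 mice but did not pass (0.38, SE 0.15, adjusted p = 0.100), and passed without mouse 6 tumor 1 (adjusted p = 0.0157). F11r, or JAM-A, an adhesion receptor, gave 0.13 (SE 0.10, adjusted p = 0.399), and Cgn, or cingulin, which ties the junction to actomyosin, gave 0.05 (SE 0.13, adjusted p = 0.813). Tjp3, or ZO-3, gave -0.18 (SE 0.14, adjusted p = 0.395), and its metastasis lines were lower in 6 of 6 mice. All 17 other tight junction genes were tested, 0 higher and 2 lower. Magi1, a multidomain scaffold, had medians of 20.2 and 28.0 TPM in metastasis and tumor lines (-0.59, SE 0.13, adjusted p = 0.0124; 0.0923 in limma on deposited TPM). Lsr, or angulin-1 of tricellular contacts, had medians of 145 TPM in metastasis lines and 185 TPM in tumor lines (-0.27, SE 0.08, adjusted p = 0.0402), a call that leaving out any of 13 single lines ended.

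Claudins held both directions, with 1 gene higher and 1 lower of 8 tested. Cldn6, a claudin of embryonic epithelia that is scarce in most adult tissue, had 35.6 to 458 TPM (median 129) in metastasis lines and 1.48 to 82.3 TPM (median 7.60) in tumor lines. The highest metastasis line was mouse 1 liver and the lowest mouse 4 peritoneum. Among tumor lines, mouse 6 tumor 1 with 82.3 TPM and mouse 5 tumor with 59.1 TPM reached into the metastasis range, and the other 5 did not. edgeR put Cldn6 at 2.86 on the log2 scale (with an SE of 0.83 and adjusted p = 0.0366), and Cldn6 was higher in the metastasis lines of 6 of 6 mice, by 1.06 on the log2 CPM scale in mouse 6 and 8.25 in mouse 1. Leaving out any of 9 single lines moved the adjusted p above 0.05, up to 0.0908, while the estimate stayed between 2.37 and 3.47. Those lines were mouse 2, 3, 4 and 5 tumor, mouse 6 tumor 2, mouse 2, 3 and 4 peritoneum and mouse 5 lung.

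Cldn2, which forms a cation and water pore in leaky epithelia, had 99.4 to 341 TPM (median 175) in metastasis lines and 202 to 397 TPM (median 328) in tumor lines. The mouse 4 peritoneum line, at 341 TPM, was the one metastasis line above its own mouse's tumor line, at 260 TPM. In the other 5 mice the metastasis lines were lower on average, and the groups overlapped. In the test Cldn2 stood at -0.83 on the log2 scale (SE 0.21, adjusted p = 0.0241). With counts summed to 1 value per mouse and stage, so that each mouse entered once per stage, the adjusted p was 0.0729. This call ended without any of 8 single lines, with adjusted p up to 0.0837 and estimates of -1.02 to -0.62, namely the tumor lines of mice 1, 2, 3 and 5, mouse 1 liver, mouse 2 and 3 peritoneum and mouse 5 diaphragm.

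Among the 9 claudins of the set, the mixture differed in make-up. As a share of the summed TPM of the 9 claudins, Cldn6 had a median of 11.6% in metastasis lines and 0.850% in tumor lines, and Cldn2 a median of 16.3% and 32.6%. Cldn7, known to bind Epcam in epithelia, held a median of 31.7% in metastasis lines and 32.1% in tumor lines. The ratio of Cldn6 to Cldn2 was 0.104 to 3.62 in metastasis lines and 0.00451 to 0.408 in tumor lines. Shares and ratios of this kind were chosen after the values were seen and carry no test. The sum of the 9 claudins was 858 to 1675 TPM (median 1171) in metastasis lines and 799 to 1338 TPM (median 940) in tumor lines. Cldn18, outside the set and named here after its values were seen, is not in this sum or the shares. It had 496, 571 and 429 TPM in the mouse 6 liver, diaphragm and ovary lines. Mouse 6 tumor 1 and tumor 2 had 579 and 94.4 TPM, mouse 2 peritoneum 367 TPM and mouse 1 liver 192 TPM. The remaining lines had at most 1.40 TPM. The shares are thus not those of all claudins.

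**Figure D3:**
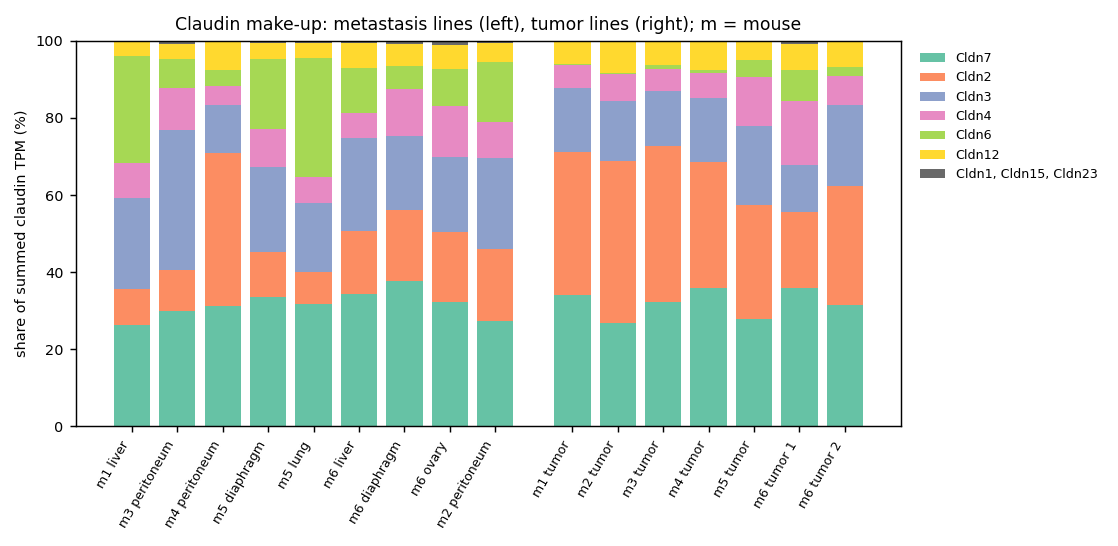
Share of each claudin in the summed rescaled TPM of 9 claudins (vertical axis, percent) for each line, metastasis lines at left and tumor lines at right. Cldn6 (light green) fills 4.15% to 30.7% of metastasis bars and 0.168% to 7.96% of tumor bars, and Cldn2 (orange) takes less of most metastasis bars.

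No other claudin passed. Cldn7 had median levels of 371 TPM in metastasis lines and 302 TPM in tumor lines (log2 fold change 0.23, SE 0.10, adjusted p = 0.141). Cldn3 and Cldn4, sealing claudins whose genes lie 39.3 kb apart, gave 0.57 (SE 0.26, adjusted p = 0.138) and 0.23 (SE 0.31, adjusted p = 0.643). For Cldn3, the mouse 3 peritoneum line stood at 612 TPM beside 135 TPM in the tumor line of that mouse, and the mouse 4 peritoneum line at 105 TPM beside 134 TPM. Cldn23 had 2.92 to 10.9 TPM (median 5.17) in metastasis lines and 1.46 to 9.52 TPM (median 2.62) in tumor lines, the top tumor value again being mouse 6 tumor 1. It was higher in 6 of 6 mice and missed the threshold (0.92, SE 0.31, adjusted p = 0.0621). Cldn23 passed in 6 of 36 alternatives. Among them were the fits without mouse 6 tumor 1, without mouse 6 liver and with counts summed per mouse and stage (adjusted p = 0.0490). Cldn12 gave -0.10 (SE 0.08, adjusted p = 0.406) and Cldn15, a cation pore claudin under 2 TPM in every line, gave 0.18 (SE 0.45, adjusted p = 0.813). Cldn1 had 491 counts summed over metastasis lines and 77 over tumor lines, and exceeded 1 TPM only in the mouse 3 peritoneum line (3.66 TPM) and the mouse 5 lung line (3.05 TPM). Of 14 other claudins 3 were tested and none passed at an adjusted p of 0.05 in edgeR, with 2 at an unadjusted p under 0.05.

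The promoters of Cldn6 and Cldn2 are shown because these genes moved in opposite directions and differ in short motifs near the start. Each is the 250 bases before a RefSeq transcription start, on the plus strand of GRCm38.p6, with capitals marking GC boxes (GGGCGG, or CCGCCC on the other strand) and the TATA box (TATAAA, searched on the strand of the gene). The Cldn6 window is chr17:23679115-23679364 and holds 2 GC boxes and no TATAAA, and the Cldn2 window is chrX:139800558-139800807 and holds TATAAA 35 bases before the start.
Cldn6: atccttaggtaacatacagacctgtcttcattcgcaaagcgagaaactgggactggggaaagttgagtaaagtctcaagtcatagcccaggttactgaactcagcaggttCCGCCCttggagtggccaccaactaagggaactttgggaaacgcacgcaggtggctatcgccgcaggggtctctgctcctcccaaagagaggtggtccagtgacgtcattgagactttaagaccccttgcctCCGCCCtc
Cldn2: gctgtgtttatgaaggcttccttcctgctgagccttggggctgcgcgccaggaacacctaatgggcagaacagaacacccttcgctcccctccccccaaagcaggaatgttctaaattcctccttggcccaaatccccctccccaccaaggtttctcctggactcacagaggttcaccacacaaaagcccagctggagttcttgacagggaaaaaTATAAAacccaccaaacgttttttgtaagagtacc

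RefSeq promoter windows were found for 24 of the 35 genes, 34 windows in all. A GC box stood in at least 1 window of 19 of the 24 genes and in 23 of the 34 windows, beside 32.7% of all 32851 windows of the same length. TATAAA stood in 3 of the 34 windows, those of Cldn2, Ctnnb1 and Gjb1, beside 7.59% of all windows. A match describes the letters of the window and is not a measured binding site.

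Of 6 desmosome genes 2 were higher in metastasis lines and 0 were lower. Dsc2, a desmosomal cadherin, had 14.1 to 41.4 TPM (median 26.0) in metastasis lines and 2.13 to 25.0 TPM (median 3.60) in tumor lines. All 9 metastasis lines lay above 6 of the 7 tumor lines, whose range was 2.13 to 7.29 TPM, and mouse 6 tumor 1 alone lay among them. The log2 fold change was 2.21 (SE 0.46, adjusted p = 0.0100), and the difference within mice ran from 1.09 on the log2 CPM scale in mouse 6 to 3.81 in mouse 3, higher in 6 of 6. No single line or mouse left out ended the call. The adjusted p without 1 line ran up to 0.0328, and it was 0.0533 with the log10 ribosomal RNA share as a covariate.

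Dsg2, the desmosomal cadherin that pairs with Dsc2, lies 499 kb from it on chromosome 18 and did not pass (0.26, SE 0.18, adjusted p = 0.347). The ratio of Dsc2 to Dsg2 was 0.657 to 1.24 (median 0.924) in metastasis lines and 0.0920 to 0.818 (median 0.181) in tumor lines, so 1 tumor line, mouse 6 tumor 1, lay in the metastasis range. The median log2 fold change of the 388 tested genes of chromosome 18 was -0.05.

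Pkp3, or plakophilin 3, which links desmosomal cadherins to desmoplakin, had 25.7 to 51.8 TPM (median 49.7) in metastasis lines and 26.3 to 44.1 TPM (median 29.8) in tumor lines. The mouse 4 peritoneum line, at 25.7 TPM, was below the tumor line of that mouse at 30.8 TPM, and Pkp3 was higher in the other 5 mice. The estimate for Pkp3 was 0.48 on the log2 scale (an SE of 0.13, adjusted p = 0.0255). The call ended without the tumor line of mouse 1, 3 or 5, without mouse 1 liver or without mouse 3 peritoneum (adjusted p up to 0.0816, estimates 0.41 to 0.59), and with counts summed per mouse and stage (adjusted p = 0.0567). Pkp2, another plakophilin, gave 0.11 (SE 0.11, adjusted p = 0.519), Jup, or plakoglobin, which binds classical and desmosomal cadherins, gave 0.13 (SE 0.11, adjusted p = 0.450), and Dsp, or desmoplakin, the anchor for keratin filaments, gave -0.10 (SE 0.14, adjusted p = 0.667). Of 12 other desmosome genes 6 were tested, and 2 were higher and 0 lower. Pkp4, a relative found at several junction types, had medians of 147 and 85.9 TPM in metastasis and tumor lines (0.61, SE 0.13, adjusted p = 0.0126), and did not pass in 4 of 36 alternatives, among them leaving out the ribosomal-RNA-rich libraries (adjusted p = 0.0581) and limma on deposited TPM (0.271). Pkp1, a plakophilin of stratified epithelia, had medians of 17.9 TPM in metastasis lines and 1.82 TPM in tumor lines (1.85, SE 0.59, adjusted p = 0.0498), a call that leaving out any of 12 single lines ended.

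Of 5 keratins 1 was higher and 0 were lower. Krt7, a filament keratin of duct and other simple epithelia, had 607 to 2561 TPM (median 1317) in metastasis lines and 504 to 1008 TPM (median 739) in tumor lines. Metastasis lines of mouse 1, 3, 4 and 5 and the mouse 6 liver line lay above all 7 tumor lines, while those of mouse 2 and the diaphragm and ovary lines of mouse 6 lay within the tumor range. The stage estimate was 0.90 on the log2 scale (SE 0.27, adjusted p = 0.0405), with 0.09 on the log2 CPM scale within mouse 6 and 1.92 within mouse 3. The call ended without any of 11 single lines (adjusted p up to 0.115, estimates 0.74 to 1.05), namely the tumor lines of mice 1 to 5, the liver lines of mice 1 and 6, the 3 peritoneal lines and mouse 5 lung.

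Krt19, another duct keratin, had 1476 to 4809 TPM (median 2448) in metastasis lines and 910 to 2172 TPM (median 1385) in tumor lines. It was higher in 6 of 6 mice but missed the threshold (0.65, SE 0.21, adjusted p = 0.0502). Krt19 passed in 10 of 36 alternatives, among them the fits without mouse 6 tumor 1 or mouse 6 ovary and DESeq2 (adjusted p = 0.0100). Krt8 and Krt18, which pair as the main filament of simple epithelia and lie 23.7 kb apart, gave 0.06 (SE 0.17, adjusted p = 0.835) and -0.03 (SE 0.16, adjusted p = 0.927). Krt23, a type I keratin, gave 0.04 (SE 0.21, adjusted p = 0.928). The ratio of Krt7 to Krt18 was 0.372 to 0.691 (median 0.447) in metastasis lines and 0.198 to 0.356 (median 0.261) in tumor lines, without overlap. Of the ratios formed for the set, no other lacked overlap. This ratio too was chosen after the values were seen and carries no test. Krt7 lies 566 kb from Krt8. Of 12 other keratins 8 were tested, and 2 were higher and 0 lower. Krt80, a type II keratin, had medians of 30.9 and 7.56 TPM in metastasis and tumor lines (1.89, SE 0.37, adjusted p = 0.00854). Krt20, an intestinal and gastric keratin, had medians of 81.9 TPM in metastasis lines and 20.1 TPM in tumor lines (1.78, SE 0.48, adjusted p = 0.0289), a call that leaving out any of 8 single lines ended.

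The Krt7 promoter is shown as that of the called keratin. Its window is chr15:101412153-101412402 on the plus strand, ends at the RefSeq start, and holds 4 GC boxes, in capitals, and no TATAAA.
Krt7: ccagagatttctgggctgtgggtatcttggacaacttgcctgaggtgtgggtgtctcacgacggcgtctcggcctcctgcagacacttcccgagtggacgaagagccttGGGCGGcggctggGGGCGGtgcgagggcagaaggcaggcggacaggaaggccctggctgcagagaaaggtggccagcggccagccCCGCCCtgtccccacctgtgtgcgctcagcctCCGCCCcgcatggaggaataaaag
In the deposited isoform tables, the transcript that starts there, Krt7-201, made up 20.1% to 34.5% (median 32.5%) of Krt7 transcripts in metastasis lines and 25.3% to 35.8% (median 32.2%) in tumor lines. The other coding transcript, Krt7-204, had medians of 41.4% and 40.7% in the metastasis and tumor lines, so the make-up overlapped while the level differed.

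Of both gap junction genes, Gjb1 was lower in metastasis lines and Gjb2 did not pass. Gjb1, or connexin 32, the main connexin of hepatocytes and also found in pancreatic acinar cells, had 5.86 to 46.1 TPM (median 18.0) in metastasis lines and 37.8 to 108 TPM (median 71.3) in tumor lines. Summed acinar markers were at most 0.129 CPM in metastasis lines and 0.0574 CPM in tumor lines. Of the hepatocyte markers, Ttr averaged 1.36 CPM in metastasis lines and 69.6 CPM in tumor lines, and Apob 129.8 and 48.7 CPM. The part of either cell type in the Gjb1 levels was not tested. For Gjb1, the mouse 6 diaphragm line, at 46.1 TPM, was the one metastasis line above any tumor line, the lowest being mouse 6 tumor 2 at 37.8 TPM. The log2 fold change was -2.02 (SE 0.42, adjusted p = 0.0107). Within mice it ran from -0.74 on the log2 CPM scale in mouse 6 to -4.12 in mouse 2, lower in 6 of 6. No single line left out ended the call, with adjusted p up to 0.0452. Leaving out mouse 5 gave 0.0575, leaving out the ribosomal-RNA-rich libraries gave 0.0506, and the log10 share as a covariate gave 0.0704.

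Gjb2, or connexin 26, which forms channels with Gjb1 in liver, had 2.81 to 31.7 TPM (median 9.00) in metastasis lines and 0.331 to 10.9 TPM (median 0.696) in tumor lines. Mouse 6 tumor 1 was the high tumor line, as the other 6 had 0.331 to 2.90 TPM. The estimate on the log2 scale was 2.42 (SE 0.90, adjusted p = 0.0838), higher in 6 of 6 mice but not past the threshold. Without mouse 6 tumor 1 it was 3.26 (adjusted p = 0.00633). Gjb2 passed in 8 of 36 alternatives, among them this fit, DESeq2 and the fit with no replicate block. The ratio of Gjb2 to Gjb1 was 0.149 to 2.95 (median 0.641) in metastasis lines and 0.00367 to 0.188 (median 0.0109) in tumor lines, where only mouse 6 tumor 1 reached the metastasis range. Of 12 other gap junction and pannexin genes 6 were tested, with 1 higher and 1 lower. Gja1, or connexin 43, the most widespread connexin, had 0 to 7.75 TPM (median 2.64) in metastasis lines and 1.62 to 60.6 TPM (median 57.1) in tumor lines. Mouse 6 tumor 1 was again alone at the low end, as the other 6 tumor lines had 54.5 TPM or more. Its log2 fold change was -4.75 (SE 0.85, adjusted p = 0.00554), and it was lower in 6 of 6 mice. Panx2, a pannexin channel gene, had medians of 1.41 and 0.237 TPM in metastasis and tumor lines (2.67, SE 0.54, adjusted p = 0.00920). The metastasis range was 0.269 to 1.80 TPM. In it lay the mouse 2 tumor line (1.45 TPM), mouse 6 tumor 1 (1.34 TPM) and mouse 6 tumor 2 (0.341 TPM). Panx2 did not pass without the mouse block (adjusted p = 0.0605), without the ribosomal-RNA-rich libraries (0.0504) or in limma on the deposited TPM (0.0515).

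The Gjb1 promoter is shown because Gjb1 was lower in all 6 mice and its starts can be told apart in the isoform tables. Gjb1 had 4 windows, and the TATAAA counted for it above lies in chrX:101383482-101383731, which is not printed. The window shown, chrX:101376985-101377234 on the plus strand, precedes the RefSeq start next to that of Gjb1-201 and holds no TATAAA. Its capitals mark GTTAAT, 48 bases before the start. GTTAAT is part of the site bound by HNF1 factors, which are active in liver and pancreas.
Gjb1: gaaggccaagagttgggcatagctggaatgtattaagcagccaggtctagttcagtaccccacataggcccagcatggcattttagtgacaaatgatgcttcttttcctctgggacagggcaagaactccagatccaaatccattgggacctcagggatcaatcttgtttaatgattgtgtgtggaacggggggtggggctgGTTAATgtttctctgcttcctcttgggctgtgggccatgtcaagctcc
GTTAAT or its complement ATTAAC stood in 2 of the 34 windows, those of Gjb1 and Cldn1, beside 6.43% of all windows. Gjb1-201 made up 39.1% to 100% (median 100%) of Gjb1 transcripts in metastasis lines and 96.8% to 100% (median 99.3%) in tumor lines. The low value was the mouse 5 diaphragm library, where Gjb1-202 took 60.9% and where ribosomal RNA genes held 72.7% of counts.

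**Figure D4:**
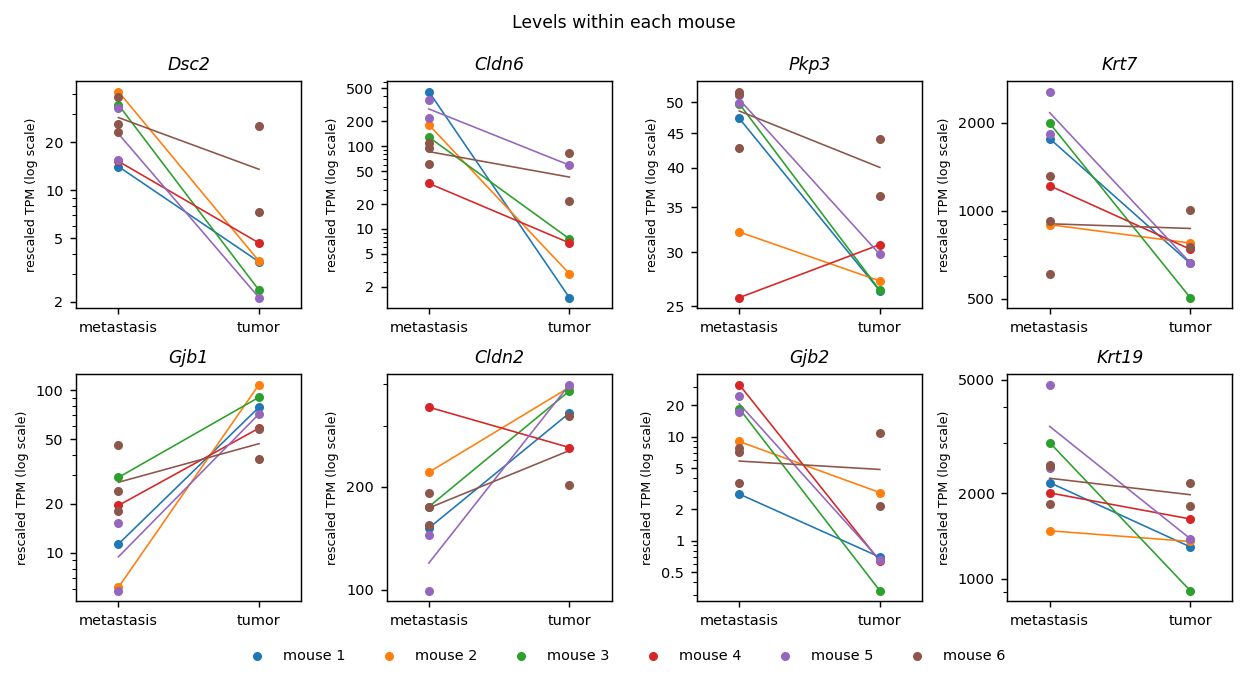
Rescaled TPM (vertical axis, log scale, its own range in each panel) of 8 genes in the metastasis lines (left) and tumor lines (right), coloured by mouse, with a line joining the geometric means of 1 mouse. Dsc2 and Cldn6 were higher and Gjb1 lower in the metastasis lines of 6 of 6 mice, Pkp3 and Cldn2 went the other way in mouse 4, and mouse 6 had the flattest line for Dsc2, Cldn6, Gjb1 and Gjb2.

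In mouse 6 the metastasis minus tumor difference was 1.09 for Dsc2, 1.06 for Cldn6, 0.30 for Gjb2 and -0.74 for Gjb1 on the log2 CPM scale, each the smallest of the 6 mice. Whether mouse 6 differed from the others in this was not tested. The 2 tumor lines of mouse 6 were unlike each other, with 25.0 and 7.29 TPM for Dsc2 and 10.9 and 2.16 TPM for Gjb2 in tumor 1 and tumor 2. The test of the mouse terms compares levels between mice and not stage differences. In it, 0 of 34 genes passed an adjusted p of 0.05 in edgeR, against 0.154% of all genes. An unadjusted p under 0.05 was found for 4 of the 34, beside 2661 of all 15573 genes. DESeq2 called 3 in the mouse test, Tjp3 (adjusted p = 0.00836), Cdh2 (0.0127) and Dsp (0.0411). The share of all genes that DESeq2 called there is not given here.

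**Figure D5:**
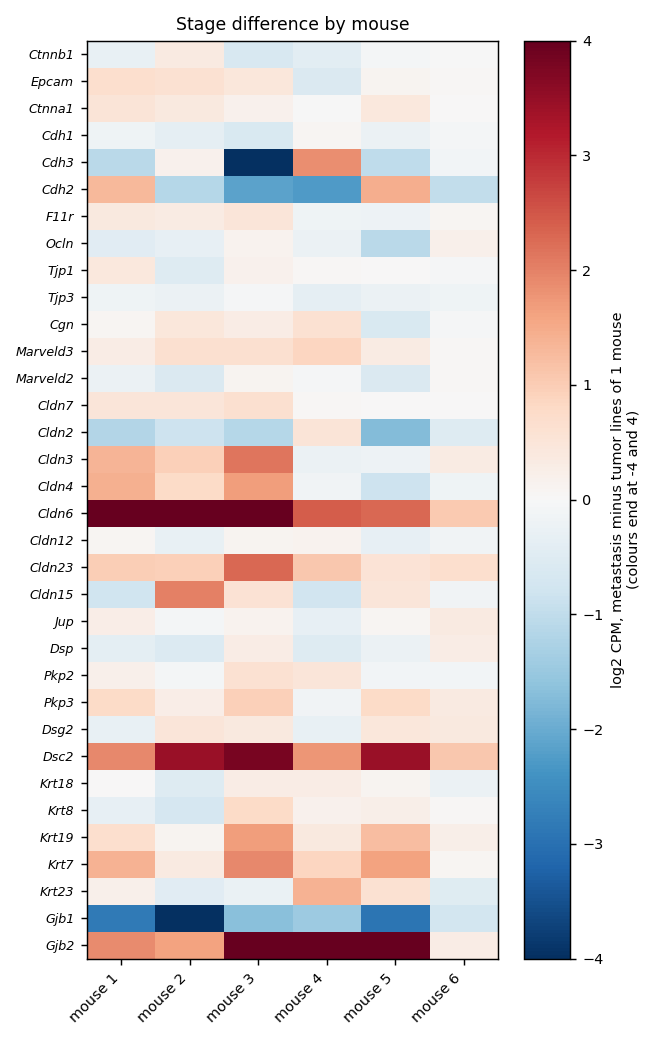
Metastasis minus tumor difference in log2 CPM of each mouse (columns) for the 34 tested genes (rows, ordered by junction class), red where metastasis lines were higher and blue where they were lower, with colours ending at -4 and 4. Dsc2, Cldn6 and Gjb2 form red rows and Gjb1 a blue row in all 6 mice, and the mouse 6 column is the palest for these rows.

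The metastatic sites did not differ past the threshold in any member. In the edgeR test that the 5 sites were equal, 0 of 34 genes passed an adjusted p of 0.05, as did 0% of all genes tested. An unadjusted p under 0.05 in edgeR was found for 2 of the 34, Tjp3 (0.0330) and Cgn (0.0449), beside 266 of all 15573 genes. DESeq2 called 0 of the 34. For Dsc2 the fitted difference from tumor was 3.03 (SE 0.73) at the peritoneum with 3 lines, 2.52 (SE 0.81) at the diaphragm with 2, 1.33 (SE 0.73) at the liver with 2, 2.10 (SE 1.14) at the lung with 1 and 1.02 (SE 0.86) at the ovary with 1. All 5 were positive. Single pairs of sites were not tested. For Gjb1 the values were -2.36 (SE 0.67) at the peritoneum, -1.01 (SE 0.71) at the diaphragm, -2.17 (SE 0.74) at the liver, -3.07 (SE 1.09) at the lung and -1.54 (SE 0.98) at the ovary. Krt7 was negative at the ovary alone (-0.29, SE 0.49), with 0.61 to 1.66 at the other 4 sites. The ovary line came from mouse 6, where the Krt7 stage difference was 0.09 on the log2 CPM scale. Mice 2, 3 and 4 gave peritoneal metastasis lines only. Differences between the peritoneum and the other sites thus cannot be told apart from differences between mice.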

How the data were processed

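RNA of 16 mouse organoid lines was measured, from libraries of total RNA depleted of ribosomal RNA and made with a stranded kit per the labels' protocols. Per the submitters' processing notes, FastQC 0.11.8, STAR 2.6.0c and RSEM 1.3.1 were used with build GRCm38.p6. The strand setting of counting is not given in the sources used here. Per the file headers, the deposited gene tables hold expected counts and TPM, and the deposited isoform tables give each isoform as a percent of its gene. RSEM divides reads among similar genes, so values of close paralogs are uncertain.

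Expected counts were rounded and tested with edgeR 4.0.16's quasi-likelihood test in R 4.3.3, with TMM factors, filterByExpr by stage and terms for mouse and stage, over all 16 lines. Benjamini-Hochberg adjustment covered 15573 genes. Sites and mice were compared by F tests in the same way. SE was the fold change divided by the root of F. The deposited TPM were rescaled to 1000000 over nuclear protein-coding genes other than CT010467.1, AY036118 and Lars2, which collect ribosomal RNA reads, a list corrected after the tables were read. Log2 CPM used a prior count of 2. Names came from GENCODE M21 and promoters from RefSeq.

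Lines of 1 mouse share an animal per the mouse label. Deviations from stage means correlated by 0.261 on average within mice (17 pairs) and -0.116 between mice (103 pairs), and by 0.0349 to 0.252 between metastasis and tumor lines of 1 mouse. P values thus partly measure the spread between lines. The 35 genes, the other lists and the markers were chosen with earlier results of these data known. All 35 genes are named, plus up to 4 called genes of lowest p per other list among genes with a mean of at least 1 CPM. The scripts were tested on simulated data. Alternatives were other normalizations, filters and ribosomal RNA corrections, DESeq2 1.42.0, limma 3.58.1, counts summed per mouse and stage, and each line and mouse left out.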

Additional observations from a re-analysis of the deposited data

Results flagged for a closer look

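Each of the 35 genes was screened in both groups, 70 screens in all, for a line set apart from the rest of its group by Dixon's test on log2(TPM + 1), which flags about 1 group in 20 by chance. It marked 2. F11r was highest in the mouse 5 tumor line at 115.4 TPM, beside 83.1 to 94.3 TPM in the other 6 tumor lines. Marveld2 was lowest in the mouse 6 tumor 1 line at 13.4 TPM, beside 19.3 to 22.7 TPM in the other 6 tumor lines. Neither gene passed the stage test.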

How the results depend on the processing

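The count of 6 called genes was 1 when the mouse 5 diaphragm and mouse 2 tumor libraries were left out, 0 with the log10 ribosomal RNA share as a covariate (an alternative added after seeing the data), 10 with DESeq2, and 2 to 10 with 1 line left out. It was 3, 3, 2, 4, 1 and 9 with mouse 1, 2, 3, 4, 5 or 6 left out. It was 8 with no replicate block, 7 with RLE size factors, 8 with no count filter and 4 to 9 with limma. limma on deposited log2(TPM + 1) moved the median of all genes by -0.13. Over 36 alternatives, Dsc2 lost its call in 1, Gjb1 in 3, Pkp3 in 12, Cldn6 in 15, Cldn2 in 18 and Krt7 in 20, and no called gene changed direction. In the mouse test DESeq2 called 3 genes and edgeR 0. The site test called 0 in every alternative run. The calls over all genes in the same settings are not set beside these counts, so the shifts are not shown to be particular to the set. The cause of these shifts was not tested. With 6 mice, and 1 line at 2 of the sites, differences between sites of the size seen could not be told from spread.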
